A study of Ovis aries with 32 samples.

Results

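Matrix metalloproteinases (MMPs), the ADAM and ADAMTS families and their tissue inhibitors (TIMPs) were followed across 4 fat depots of sheep and across 2 prenatal treatments. The set was every row of the count table whose symbol begins with MMP, ADAM or ADAMTS followed by its number, ADAMTSL included, together with TIMP1 to TIMP4, which gave 61 of 28524 genes. The rule used the symbol alone and no measured value. It held 4 TIMPs, 12 secreted and 7 membrane-bound MMPs, 9 ADAMs with a catalytic site and 5 without one, 7 proteoglycan-cleaving, 2 procollagen-processing and 9 other ADAMTS enzymes, and 5 ADAMTS-like proteins. The last row, MMP24OS, carries the name of a transcript opposite MMP24 and is no protease by that name.

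MMPs cut collagens and other matrix proteins, and most are made as inactive precursors that another protease must open. ADAMs with a catalytic site release growth factors, cytokines and Notch from the cell surface, while ADAMs without one act in adhesion and at synapses. ADAMTS enzymes are secreted and cut proteoglycans such as versican and aggrecan or trim procollagens, ADAMTS-like proteins have no protease domain and bind fibrillin-rich matrix, and TIMPs block the active sites of these enzymes. In fat, such proteases open the collagen mesh around adipocytes as the tissue grows and vessels enter it.

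Sheep exposed to testosterone before birth are used as a model of polycystic ovary syndrome. Between day 30 and day 90 of pregnancy, testosterone propionate (100 mg, or 1.2 mg/kg, dissolved in 2 ml of corn oil) was injected 2 times weekly into mothers of the testosterone group, and for mothers of the control group the labels name no injection. The daughters of both groups, named by their animal numbers, were control sheep 98, 131, 132 and 201 and testosterone sheep 48, 185, 233 and 255, and each gave visceral (mesenteric, by the rumen), subcutaneous (sternal), perirenal and epicardial fat. All 8 were kept together on a maintenance diet, were ovariectomized at the end of their second breeding season, had a 1 cm estradiol implant, then 2 progesterone implants for 14 days, and then 4 estradiol implants of 30 mm for 18 h before fat was taken. Both groups thus had no ovaries and carried the same implants. The 8 groups of depot and treatment held 4 libraries each.

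Libraries were made by 3′ end sequencing, which reads 1 end of each transcript, so counts were scaled to library size (CPM) without a length correction. Total counts ran from 784135 to 8267824 per library, and the 61 genes took 0.122% to 0.322% of them. Some libraries stood apart within their group. Transcripts of 7 heart muscle genes (9 were listed, and MYH6 and MYH7 are not in the table) summed to 11729, 3023, 5.70 and 300.2 CPM in epicardial fat of control sheep 98, 131, 132 and 201 and, for testosterone sheep 48, 185, 233 and 255, to 13660, 221, 1954 and 5.31 CPM. Other depots had at most 32.5 CPM. The nuclear transcripts ARGLU1 and LUC7L3 summed to 35916 CPM in subcutaneous fat of testosterone sheep 48 and to 27953 CPM in visceral fat of testosterone sheep 255, against 728 to 8057 CPM in the other 30 libraries. Adipocyte markers (ADIPOQ, PLIN1, LEP, FABP4, CIDEC and LIPE) had counts in every library, which does not tell the depots apart. They summed to 6932 CPM in epicardial fat of control sheep 98 and 7859 CPM in that of testosterone sheep 48. Both sums were below the heart muscle sum of the same library. In whole tissue, fewer cells of a type and less RNA per cell cannot be told apart.

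Of the 61 genes, 4 had no count in any of the 32 libraries: MMP1, MMP8 and MMP13, the interstitial collagenases, and MMP7, matrilysin. Another 11 never passed the filter on low counts in any comparison, and their highest value in any library was 2.50 CPM. They included MMP12, an elastase of macrophages, MMP20, which matures tooth enamel, ADAM7 and ADAM18, known from the male reproductive tract, and ADAMTS13, which cuts von Willebrand factor. In the depot comparison of control sheep 41 of the 61 could be tested, and 46 could be tested in at least 1 comparison. ADAM28 and ADAMTS2 were not analysed here.

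The genes with the highest CPM were ADAMTS5, a main aggrecan- and versican-cleaving enzyme, ADAMTS1, a relative with an overlapping substrate range, TIMP2, and ADAM10, the sheddase that starts Notch cleavage. ADAMTS5 averaged 663 ± 395, 789.9 ± 468, 665 ± 403 and 260.0 ± 46.4 CPM (SD, n = 4) in visceral, subcutaneous, perirenal and epicardial fat of control sheep, and was first in all 4 depots. ADAMTS1 was at 234 ± 49.4, 213 ± 97.2, 280.1 ± 85.9 and 225 ± 52.6 CPM in the same order. ADAM10 was at 151 ± 13.5, 136 ± 13.6, 153 ± 23 and 132 ± 8.74 CPM. The gelatinases, which cut denatured collagen and are often named in work on fat, had low values: MMP2 averaged 1.27 to 3.79 CPM and MMP9 0.356 to 2.06 CPM over the control depots. A rank between genes here is a rank of 3′ end counts. How well the annotated end of each gene captures its reads was not tested. A low CPM or a count of 0 thus need not mean that a transcript was rare or absent.

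The first comparison asks which of these genes differ between depots of control sheep. Each depot was set against the mean of the other 3 with the sheep as a block, so a gene called higher need not be highest there. By this construction the contrasts of a gene cancel out over the depots. Its calls in several depots are therefore not separate findings. A gene was called at a false discovery rate (adjusted p, edgeR, over all 13369 genes tested) under 0.05. In the joint test of depot, 22 of 41 genes were called (53.7%), against 39.9% of all genes tested. At least 1 depot contrast called 25 genes, and only 22 of these passed the joint test. The share of all genes called in at least 1 contrast was not computed. In epicardial fat 16 were called, 9 higher and 7 lower (39% against 27.8% of all genes, of which 15.3% were higher and 12.4% lower). In subcutaneous fat 15 were called, 9 higher and 6 lower (36.6% against 23%, of which 11.4% higher and 11.6% lower), in visceral fat 7, 3 higher and 4 lower (17.1% against 5.73%, of which 3.49% higher and 2.24% lower), and in perirenal fat 7, 3 higher and 4 lower (17.1% against 13.8%, of which 7.73% higher and 6.04% lower). Medians of the log2 fold change over the 41 genes were 0.06, 0.02, -0.02 and 0.24 in visceral, subcutaneous, perirenal and epicardial fat, beside -0.0032, 0.01, -0.0080 and 0.03 over all genes. Leaving out 1 sheep gave 12 to 16 joint calls (13 without sheep 98, 12 without 201), 12 to 16 epicardial, 8 to 13 subcutaneous (9 without sheep 131 or 132, 8 without 201), 1 to 7 visceral (4 without sheep 98, 1 without 131, 2 without 201) and 4 to 7 perirenal calls (4 without sheep 98 or 201). Without the sheep as a block, 14 were called jointly and 4 in perirenal fat. Shares over all genes were not computed for these refits.

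**Figure D1:**
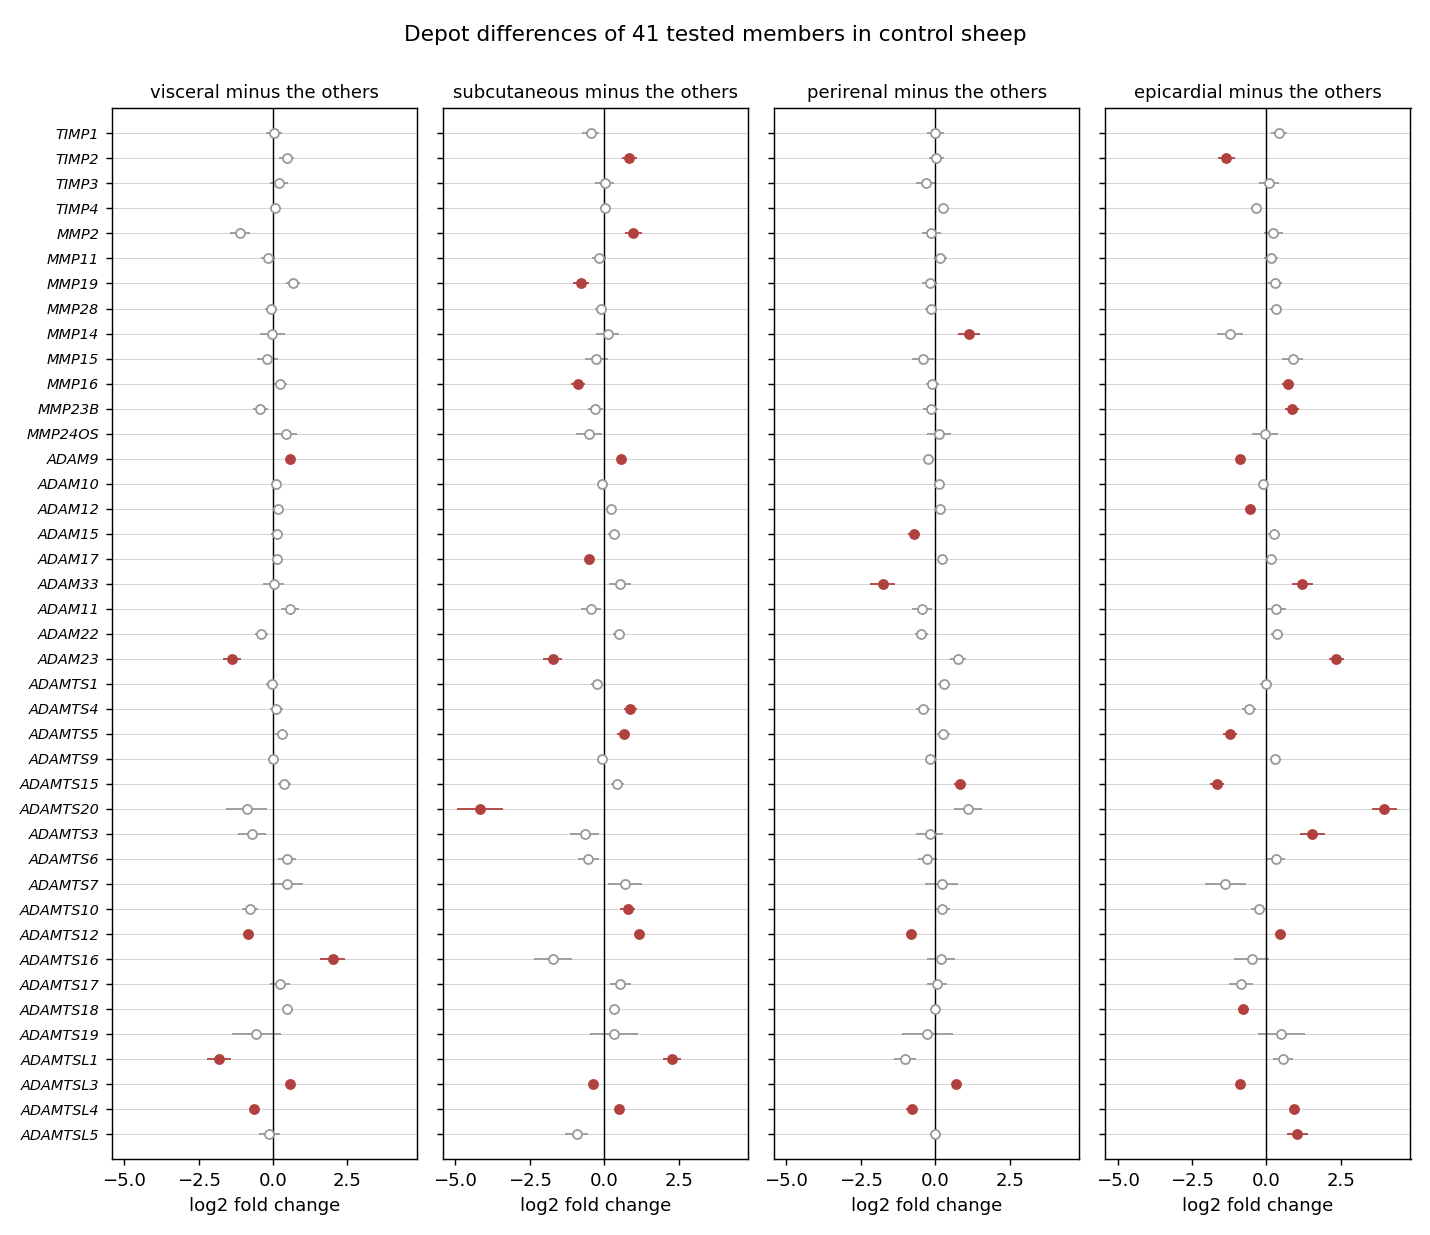
Log2 fold change of 1 depot minus the mean of the other 3 (horizontal axis, in 4 panels) for the 41 tested genes (vertical axis, by role) in control sheep, n = 4 sheep, with the sheep as a block. Bars are SE and filled red points passed FDR 0.05 in edgeR: 7, 15, 7 and 16 in visceral, subcutaneous, perirenal and epicardial fat, with ADAMTS20 and ADAM23 far to the right in epicardial and far to the left in subcutaneous fat.

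Among the inhibitors, 1 of 4 differed between depots. TIMP2, which also helps MMP14 to activate MMP2, was lower in epicardial and higher in subcutaneous fat. In control sheep 98, 131, 132 and 201, the order used for all control values, TIMP2 was at 34.6, 83.8, 125 and 76 CPM in epicardial and 342, 219.8, 223 and 199.6 CPM in subcutaneous fat. It was at 149, 278, 235 and 171 CPM in visceral and 198, 176, 125 and 155 CPM in perirenal fat. The highest epicardial value, from sheep 132, stayed just under the lowest value elsewhere, which was the perirenal library of the same sheep. This gave a log2 fold change of -1.34 (SE 0.28, adjusted p = 0.00378) in epicardial and 0.85 (SE 0.25, adjusted p = 0.0271) in subcutaneous fat, and the subcutaneous call was lost without sheep 131 or 201 (adjusted p = 0.0733 to 0.1). Without the epicardial library of sheep 98, which held the most heart muscle transcripts among control sheep, the epicardial value was -1.04.

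TIMP4, an inhibitor known from heart and fat, averaged 55.2 ± 15.7 CPM in perirenal and 37.5 ± 4.96 CPM in epicardial fat, with 48.1 and 49.3 CPM in subcutaneous and visceral fat. TIMP1 averaged 16.2 to 25.8 CPM and TIMP3, the inhibitor with the widest reach over ADAMs and ADAMTS enzymes, 2.64 to 3.5 CPM over the control depots. None of these 3 was called in any depot, and their log2 fold changes lay between -0.45 (TIMP1, subcutaneous) and 0.43 (TIMP1, epicardial). In the sheep annotation TIMP1 overlaps SYN1, ARAF and ZNF81, TIMP3 overlaps SYN3, TIMP4 overlaps SYN2 and TIMP2 overlaps CEP295NL. Since the strand setting of the counting is not given in the sources used here, reads of such pairs could not be told apart.

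Of 4 tested secreted MMPs, 2 were called, both in subcutaneous fat. MMP2 (gelatinase A) was at 5.03, 2.12, 4.91 and 3.09 CPM in subcutaneous and 1.53, 1.31, 1.2 and 1.02 CPM in visceral fat of the 4 control sheep, so that all subcutaneous values were above all visceral ones. Epicardial fat had 3.88, 1.49, 2.07 and 3.08 CPM and overlapped both. The subcutaneous log2 fold change was 0.98 (SE 0.30, adjusted p = 0.0248) and was lost without sheep 98 or 132 (adjusted p = 0.0951 to 0.203). MMP19, a broad-range MMP, went the other way, with 10.1, 4.78, 4.46 and 5.64 CPM in subcutaneous and 27.2, 9.53, 8.25 and 11.3 CPM in visceral fat. Its subcutaneous log2 fold change was -0.79 (SE 0.27, adjusted p = 0.0434), lost without sheep 131, 132 or 201 (adjusted p = 0.111 to 0.14), and the subcutaneous value of sheep 98 lay within the visceral range. MMP11 (stromelysin-3) and MMP28 (epilysin) averaged 7.63 to 9.8 and 13.1 to 16.2 CPM and were not called. MMP9 (gelatinase B, typical of neutrophils and macrophages) was too low to be tested, at 5.69, 1.15, 1.06 and 0.342 CPM in visceral fat.

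MMP27 was also under the filter in this comparison but was uneven between depots. In subcutaneous fat of control sheep it had 48 counts over 4 libraries, a pooled 2.68 CPM, and in visceral fat it had none. Against a floor of 3 counts over the 4 visceral libraries (0.113 CPM) the subcutaneous level was at least 23.8-fold higher, a bound that covers counting error only. Epicardial fat had 1 count, a ratio of 51.2 with an exact Poisson interval of 8.77 to 2066. Perirenal fat of control sheep had 7 counts. In testosterone sheep 48, 185, 233 and 255 MMP27 was at 0, 0, 1.98 and 0.896 CPM in subcutaneous fat. Their perirenal fat had 0.485, 0.329, 1.43 and 0.415 CPM, within that range. MMP27 was chosen after its values were seen, and no test of this depot difference was made.

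Of 4 tested membrane-bound MMPs, 3 were called. MMP14, the main collagen-cutting MMP of the cell surface, was higher in perirenal fat, with 5.41, 7.02, 5.15 and 10.6 CPM in the 4 control sheep, and 1.29, 0.931, 2.07 and 3.9 CPM in epicardial fat. All perirenal values were above all epicardial ones, while visceral fat ran from 0.854 to 6.52 CPM and overlapped both. The perirenal log2 fold change was 1.13 (SE 0.36, adjusted p = 0.0458), lost without sheep 98, 131 or 201 (adjusted p = 0.0548 to 0.204). MMP16, a membrane MMP that cuts collagen and activates MMP2, was higher in epicardial fat, at a log2 fold change of 0.73 (SE 0.21, adjusted p = 0.0156), and lower in subcutaneous fat, at -0.89 (SE 0.23, adjusted p = 0.0124). The control values overlapped, at 29.7, 65, 60.8 and 48.3 CPM in epicardial and 14.4, 10.4, 42 and 23.8 CPM in subcutaneous fat, and the calls were lost without sheep 98 or 131 (adjusted p = 0.064 to 0.0691) and without sheep 98, 131 or 201 (adjusted p = 0.063 to 0.0661). MMP23B, a membrane-anchored MMP, was at 11.3, 10.8, 12.8 and 12.3 CPM in epicardial fat and at 3.76 to 7.08, 3.79 to 9.03 and 3.86 to 10.4 CPM in visceral, subcutaneous and perirenal fat. The lowest epicardial value was above every other control library, and the log2 fold change was 0.88 (SE 0.23, adjusted p = 0.00993), lost without sheep 132 (adjusted p = 0.0566). MMP15 was not called, with 2.83 to 5.29 CPM.

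Among 6 tested ADAMs with a catalytic site, 3 were called in the joint test of depot, and ADAM9 was called in 3 depots. Not all of those described below as called in a depot passed the joint test. ADAM9, a surface sheddase, was at 34.6, 35.9, 39.2 and 46.4 CPM in epicardial fat of the 4 control sheep, 54.7, 51.3, 57.6 and 61 in perirenal, 95.4, 80.4, 88.2 and 70.9 in subcutaneous and 121, 74.1, 67.9 and 80.6 CPM in visceral fat. Epicardial values were all below perirenal ones, and perirenal values were all below those of subcutaneous and visceral fat, which overlapped. In edgeR the log2 fold change was -0.89 (SE 0.15, adjusted p = 2.49e-04) in epicardial, 0.56 (SE 0.13, adjusted p = 0.00617) in subcutaneous and 0.56 (SE 0.13, adjusted p = 0.0194) in visceral fat. The subcutaneous call was lost without sheep 131 (adjusted p = 0.0546) and the visceral call without sheep 98 or 131 (adjusted p = 0.106 to 0.125).

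ADAM17, the sheddase of tumour necrosis factor, was at 55.8, 61.1, 50.9 and 61.3 CPM in subcutaneous fat of control sheep and at 67 to 93.5, 75.5 to 99.7 and 65.3 to 101 CPM in visceral, perirenal and epicardial fat. Every subcutaneous value was the lower, with a log2 fold change of -0.52 (SE 0.13, adjusted p = 0.01) that was lost without sheep 132 (adjusted p = 0.0956). ADAM17 overlaps IAH1 in the sheep annotation. ADAM12, a sheddase known from adipogenesis and muscle, was lower in epicardial fat, with 24.2, 43.8, 40.2 and 57.3 CPM against 53.2 to 78 CPM in subcutaneous fat. Its log2 fold change was -0.54 (SE 0.17, adjusted p = 0.0269), lost without sheep 98, 131 or 132 (adjusted p = 0.0695 to 0.162), and the epicardial values of sheep 131 and 201 overlapped other depots.

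ADAM33 and ADAM15 were lower in perirenal fat. ADAM33, a fibroblast and smooth muscle sheddase, was at 3.31, 8.58, 2.58 and 7.8 CPM in perirenal, 25.8, 16.8, 20.5 and 34.7 in epicardial and 21.1, 25.5, 12.7 and 12.9 CPM in subcutaneous fat of control sheep. Perirenal values were below all epicardial and subcutaneous ones and overlapped visceral fat, where sheep 98 had 33.9 CPM and the other 3 had 6.79 to 10.2 CPM. The fitted difference (log2) was -1.76 (SE 0.42, adjusted p = 0.0158) in perirenal and 1.20 (SE 0.35, adjusted p = 0.0214) in epicardial fat, lost without sheep 132 (adjusted p = 0.0777) and without sheep 132 or 201 (adjusted p = 0.117 to 0.148). ADAM15 was at 52, 44.3, 29.6 and 48 CPM in perirenal and 65.1, 79.7, 49 and 75.3 CPM in visceral fat, with a perirenal log2 fold change of -0.72 (SE 0.21, adjusted p = 0.0327); the ranges met between 49.0 and 52.0 CPM and the call was lost without sheep 98, 132 or 201 (adjusted p = 0.0947 to 0.151). ADAM10 was not called in any depot, with log2 fold changes from -0.13 to 0.12.

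Of the 3 tested ADAMs without a catalytic site, ADAM23 differed between depots. ADAM23, which with ADAM22 binds the synaptic protein LGI1, was at 37.2, 18.6, 18 and 27.5 CPM in epicardial and 6.76, 9.05, 14.2 and 15.4 CPM in perirenal fat of control sheep 98, 131, 132 and 201. It was at 2.78, 2.96, 3.46 and 5.98 CPM in visceral and 1.68, 4.51, 1.79 and 4.37 CPM in subcutaneous fat. The groups fell into 3 levels that did not overlap: epicardial, perirenal, and the visceral and subcutaneous libraries together. On the log2 scale the difference was 2.35 (SE 0.24, adjusted p = 2.97e-06) in epicardial, -1.73 (SE 0.32, adjusted p = 0.0012) in subcutaneous and -1.38 (SE 0.30, adjusted p = 0.0124) in visceral fat, the last lost without sheep 131 or 201 (adjusted p = 0.0632 to 0.0802). Among control sheep, epicardial ADAM23 was highest in sheep 98 and lowest in sheep 132, the libraries with the most and the fewest heart muscle transcripts (11729 and 5.70 CPM). Sheep 131 and 201 went the other way, with 3023 and 300 CPM of heart muscle transcripts beside 18.6 and 27.5 CPM of ADAM23. The part of heart muscle transcripts in the ADAM23 level was not tested. Without the epicardial library of sheep 98 the epicardial log2 fold change was 1.91. ADAM11 and ADAM22 were not called.

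The ADAMTS enzymes that cut proteoglycans split between depots. ADAMTS5 and ADAMTS15 were lower in epicardial fat and ADAMTS20 was higher there. ADAMTS5 was at 205, 267, 249 and 318 CPM in epicardial fat and at 564, 484, 363 and 1242 CPM in visceral, 647, 436, 597 and 1479 CPM in subcutaneous and 926, 322, 322 and 1092 CPM in perirenal fat. Every epicardial value was below every other, while the other depots overlapped and sheep 201 was the highest of the 4 sheep in each depot. The log2 fold change was -1.21 (SE 0.24, adjusted p = 0.00201) in epicardial and 0.66 (SE 0.22, adjusted p = 0.04) in subcutaneous fat, the latter lost without sheep 132 or 201 (adjusted p = 0.132 to 0.141).

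ADAMTS15 was at 23.9, 36.3, 29.9 and 43.9 CPM in epicardial and 181, 78.6, 94.8 and 168 CPM in perirenal fat, with 77.5 to 128 and 62 to 131 CPM in visceral and subcutaneous fat. Epicardial values were again below all others, and the perirenal values split into a high pair (sheep 98 and 201) and a low pair. This gave a log2 fold change of -1.66 (SE 0.24, adjusted p = 1.52e-04) in epicardial and 0.84 (SE 0.20, adjusted p = 0.015) in perirenal fat, the latter lost without sheep 98 or 201 (adjusted p = 0.074 to 0.113). ADAMTS20, whose mouse form clears versican in the developing skin, was at 11.3, 8.01, 5.35 and 9.86 CPM in epicardial, 0.751, 1.72, 3.99 and 2 in perirenal, 0.278, 0.329, 1.33 and 1.02 in visceral and 0, 0.265, 0.223 and 0 CPM in subcutaneous fat. All epicardial values were above all perirenal ones, and all subcutaneous values were below all others, with 2 counts in the 4 subcutaneous libraries together. The pooled ratio of epicardial to subcutaneous fat was 73.5, with an exact Poisson interval of 20.0 to 613 for counting error only. In edgeR the log2 fold change was 3.97 (SE 0.41, adjusted p = 2.73e-06) in epicardial and -4.18 (SE 0.77, adjusted p = 0.00112) in subcutaneous fat, and 3.48 in epicardial fat without the epicardial library of sheep 98.

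ADAMTS4, an aggrecanase induced in inflamed tissue, was higher in subcutaneous fat, at a log2 fold change of 0.88 (SE 0.21, adjusted p = 0.00702). Its values of 30.4, 11.7, 56.5 and 80.8 CPM there overlapped 22.8, 16.9, 27.7 and 45.4 CPM in visceral fat, and the call was lost without sheep 132 or 201 (adjusted p = 0.069 to 0.0918). Among control sheep, ADAMTS4 was highest in sheep 201 in each depot. ADAMTS1 and ADAMTS9, the latter a versican-cleaving enzyme, were not called in any depot, with ADAMTS9 at 65 to 82.5 CPM on average. ADAMTS8 was not tested.

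ADAMTS3, which trims procollagen, was higher in epicardial fat, at 6.14, 7.63, 3.8 and 4.93 CPM against 1.8, 3.12, 2.96 and 2 CPM in perirenal and 2.36, 1.48, 3.46 and 0.512 CPM in visceral fat. Subcutaneous fat had 0.958, 0.265, 6.03 and 1.09 CPM, where sheep 132 reached the epicardial range. The fitted difference (log2) was 1.54 (SE 0.42, adjusted p = 0.012), lost without sheep 98, 131 or 201 (adjusted p = 0.0635 to 0.0779). The related ADAMTS14 was not tested.

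Among 8 other ADAMTS enzymes, ADAMTS12, which cuts cartilage oligomeric matrix protein, was called in all 4 depots. It was at 28, 29.5, 15.6 and 20.4 CPM in subcutaneous and 25.2, 11.9, 13.6 and 14.6 CPM in epicardial fat, at 11.5, 7.06, 6.65 and 8.03 CPM in visceral fat, and at 14.7, 7.8, 5.02 and 7.4 CPM in perirenal fat. Subcutaneous values were above all visceral and perirenal values, and overlapped epicardial fat. On the log2 scale the difference was 1.18 (SE 0.16, adjusted p = 9.98e-05) in subcutaneous, 0.47 (SE 0.17, adjusted p = 0.045) in epicardial, -0.84 (SE 0.18, adjusted p = 0.012) in visceral and -0.82 (SE 0.18, adjusted p = 0.00751) in perirenal fat. The epicardial call was lost without the epicardial library of sheep 98 (log2 fold change 0.42, adjusted p = 0.152), without sheep 98, 132 or 201 (adjusted p = 0.139 to 0.2) and the visceral call without sheep 98, 131 or 201 (adjusted p = 0.06 to 0.0659). ADAMTS16 was higher in visceral fat, at 4.72, 2.79, 0.931 and 3.93 CPM against 1.29, 0.559, 0.518 and 0.821 CPM in epicardial, 0.751, 0.624, 0.773 and 2.6 in perirenal and 0.479, 0.796, 0.446 and 0 CPM in subcutaneous fat. Visceral sheep 132 fell within the perirenal and epicardial ranges. The log2 fold change was 2.00 (SE 0.43, adjusted p = 0.0119), lost without sheep 98 or 131 (adjusted p = 0.0704 to 0.0715). Without sheep 201 ADAMTS16 was not tested, so the call held only without sheep 132. ADAMTS18, its closest relative, was lower in epicardial fat, at a log2 fold change of -0.77 (SE 0.19, adjusted p = 0.00528). ADAMTS10, which binds fibrillin, was higher in subcutaneous fat, at 0.79 (SE 0.26, adjusted p = 0.0333) on the same scale, lost without sheep 131, 132 or 201 (adjusted p = 0.0868 to 0.164). ADAMTS6, ADAMTS7, ADAMTS17 and ADAMTS19 were tested and not called, and ADAMTS13 was not tested.

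Of 4 tested ADAMTS-like proteins, ADAMTSL3 and ADAMTSL4 were called in all 4 depots, in opposite directions. ADAMTSL3 was at 139.5 to 168 CPM in perirenal and 119.9 to 159.5 CPM in visceral fat, 83.4, 80.7, 80.1 and 97.9 CPM in subcutaneous and 47.5, 88.3, 56.8 and 75.8 CPM in epicardial fat. All perirenal and visceral values were above all subcutaneous and epicardial ones. This gave a log2 fold change of 0.71 (SE 0.11, adjusted p = 5.74e-04) in perirenal, 0.55 (SE 0.11, adjusted p = 0.0061) in visceral, -0.39 (SE 0.11, adjusted p = 0.0209) in subcutaneous and -0.88 (SE 0.12, adjusted p = 3.89e-05) in epicardial fat, and the subcutaneous call was lost without sheep 131, 132 or 201 (adjusted p = 0.0586 to 0.154). ADAMTSL4, which binds fibrillin-1 and in humans holds the eye lens in place, was at 22, 20.1, 24.2 and 19.1 CPM in epicardial, 16.3, 19.4, 21.2 and 12.7 in subcutaneous, 10.1, 10.7, 8.78 and 9.05 in visceral and 8.41, 10.5, 6.57 and 10.4 CPM in perirenal fat. All epicardial and subcutaneous values were above all visceral and perirenal ones. Its log2 fold change was 0.92 (SE 0.16, adjusted p = 4.37e-04) in epicardial, 0.51 (SE 0.17, adjusted p = 0.034) in subcutaneous, -0.64 (SE 0.17, adjusted p = 0.0396) in visceral and -0.79 (SE 0.18, adjusted p = 0.00835) in perirenal fat. These calls were lost without sheep 98, 131 or 132 (adjusted p = 0.0766 to 0.198) in subcutaneous, without sheep 98, 131, 132 or 201 (adjusted p = 0.0985 to 0.164) in visceral and without sheep 98 (adjusted p = 0.0568) in perirenal fat.

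ADAMTSL1 (punctin) was highest in subcutaneous fat, with 14.1, 16.7, 4.02 and 12.6 CPM there and 5.49, 5.21, 5.01 and 2.67 CPM in epicardial fat. It was at 2.36, 0.657, 1.2 and 1.2 CPM in visceral fat and at 1.35, 1.87, 2.19 and 2.8 CPM in perirenal fat. Sheep 132 alone kept subcutaneous and epicardial fat from separating. In edgeR the log2 fold change was 2.28 (SE 0.31, adjusted p = 8.10e-05) in subcutaneous and -1.82 (SE 0.39, adjusted p = 0.012) in visceral fat, the latter lost without sheep 131 or 201 (adjusted p = 0.0611 to 0.1). ADAMTSL5 was higher in epicardial fat, at a log2 fold change of 1.05 (SE 0.34, adjusted p = 0.0301), but sheep 98 had 14.5 CPM and sheep 132 had 2.07 CPM, and the call was lost without sheep 98 or 201 (adjusted p = 0.178 to 0.356). Without the epicardial library of sheep 98 alone its log2 fold change was 0.52 (adjusted p = 0.326). ADAMTSL2, a binder of fibrillin and latent TGF-beta protein that was under the filter, had no count in subcutaneous fat and 18, 2, 2 and 3 counts in visceral fat of sheep 98, 131, 132 and 201, most of them from sheep 98, so no fold is given.

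**Figure D2:**
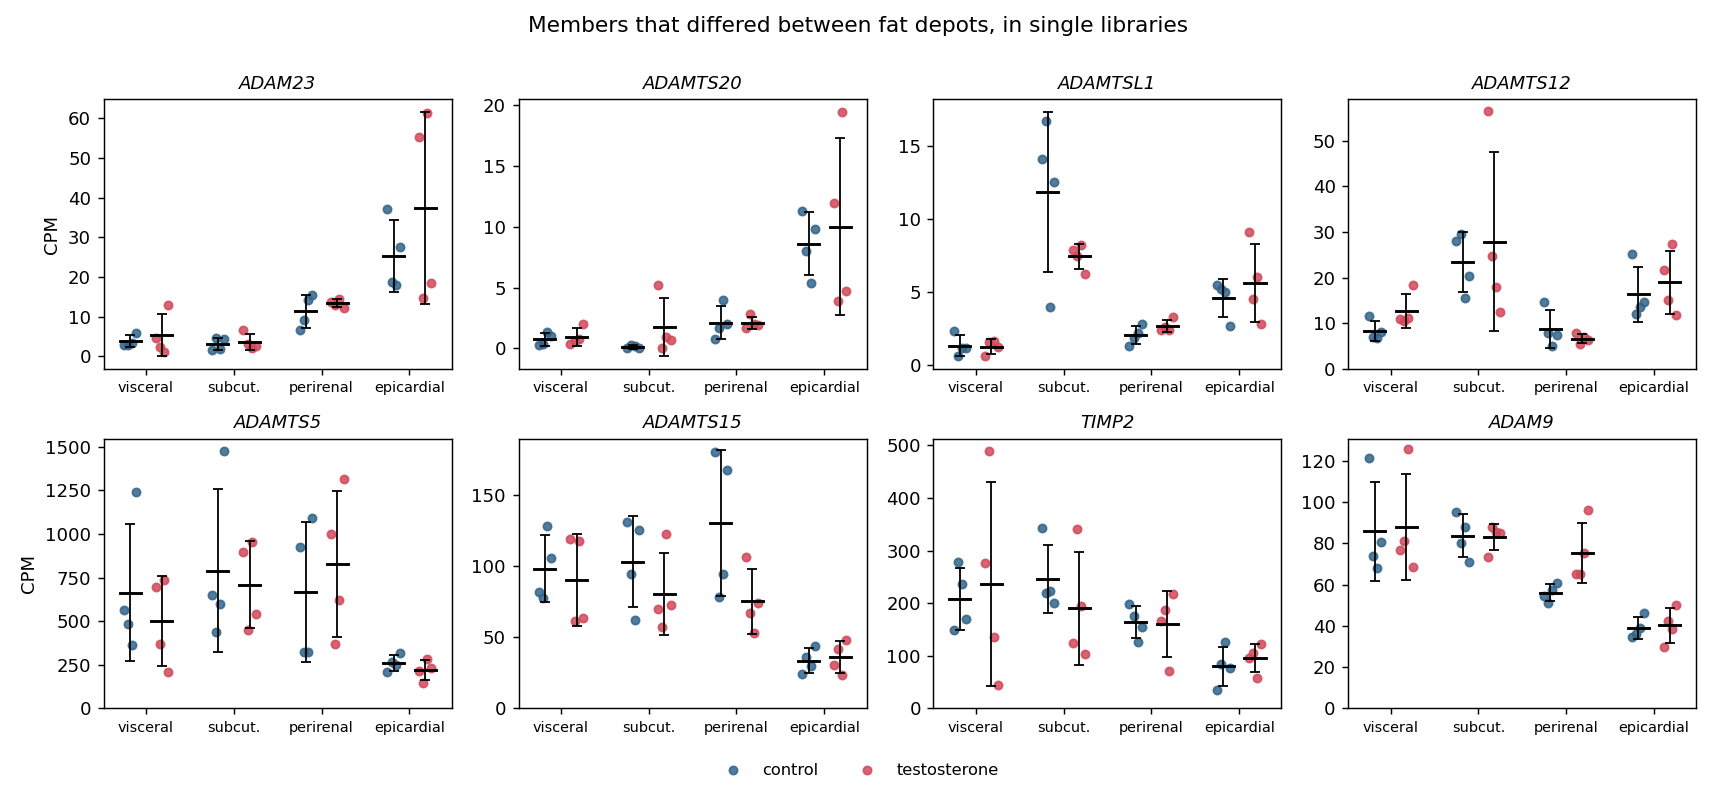
CPM (vertical axis, linear, in 8 panels) of ADAM23, ADAMTS20, ADAMTSL1, ADAMTS12, ADAMTS5, ADAMTS15, TIMP2 and ADAM9 in single libraries by depot and treatment. Points are sheep, lines are means and bars are SD with n = 4: in control sheep (blue) epicardial points stand above the rest for ADAM23 and ADAMTS20 and below the rest for ADAMTS5, ADAMTS15, TIMP2 and ADAM9.

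Markers of cell types moved with the same depots. In control sheep the 6 adipocyte markers summed to 6932 to 19111 CPM in epicardial fat against 32133 to 53442, 27393 to 38941 and 27061 to 42130 CPM in visceral, subcutaneous and perirenal fat, and 4 of 6 were called lower in epicardial fat. The 7 progenitor and fibroblast markers summed to 3797 to 5081 CPM in epicardial fat against 1883 to 3146 CPM in subcutaneous fat, with 4 called higher and 1 lower in epicardial fat. The 5 endothelial markers, all called lower in epicardial fat, summed to 607 to 702 CPM there and to 856 to 963 CPM in subcutaneous fat. All 6 T and NK cell markers were called lower in subcutaneous and higher in epicardial fat, with sums of 9.58 to 23.1 and 48.7 to 100.2 CPM. The 6 mesothelial markers summed to 1.46 to 4.02 CPM in subcutaneous and 78.4 to 85.8 CPM in epicardial fat. Visceral and perirenal sums were 84.4 to 158 and 58.7 to 114 CPM. Over all libraries WT1 reached 211 CPM, KRT8 22.3 CPM and the remaining mesothelial markers less. Only 3 of the 6 could be tested, all called lower in subcutaneous and higher in epicardial fat. Macrophage markers, of which the table holds 7 of 9 (not CD163 and C1QB), summed to 569 to 661 CPM in visceral fat. Their sums were 292 to 444 CPM in subcutaneous, 504 to 635 CPM in perirenal and 263 to 487 CPM in epicardial fat. Of 6 tested, 3 were called lower in subcutaneous and 1 lower in epicardial fat. Visceral fat had 2 called higher and perirenal fat 1. Smooth muscle markers summed to 228 to 450.2 CPM in subcutaneous and 363 to 1194 CPM in perirenal fat, with 4 of 5 called lower in subcutaneous fat. Of the Schwann cell markers described here, CDH19 was called higher in epicardial and lower in subcutaneous fat, at log2 fold changes of 3.34 and -2.75, and S100B was called lower in epicardial and higher in visceral fat, at -1.36 and 1.10. The transcripts followed as a sign of RNA quality, ARGLU1 and LUC7L3, were both called lower in perirenal fat, at -0.95 and -0.60, and ARGLU1 was called higher in subcutaneous fat, at 0.93. Of the heart muscle markers, 3 to 4 of 7 were at 0 in all control libraries of each other depot. The part of these differences in the depot calls was not tested.

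The depot comparison was repeated in the 4 testosterone sheep, which are different animals. Fewer genes were called there, over members and over all genes. The joint test called 8 of 41 genes (19.5%, against 4.82% of all 13411 genes tested), and all 8 were among the 22 called in control sheep. They were MMP16, ADAM9, ADAM23, ADAMTS5, ADAMTS20, ADAMTS12, ADAMTS16 and ADAMTSL1. In epicardial fat 6 were called (4.46% of all genes), and these 6 were 37.5% of the 16 control calls and had the same direction in both sets of sheep.

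The difference between the 2 sets was tested only as the interaction given further on. ADAM23 had a log2 fold change of 2.63 (SE 0.45, adjusted p = 0.00455) in testosterone sheep beside 2.35 in control sheep, and ADAMTS20 had 2.88 (SE 0.53, adjusted p = 0.00623) beside 3.97. In testosterone sheep 48, 185, 233 and 255, the order used for all testosterone values, epicardial ADAM23 was at 55.3, 14.8, 61.2 and 18.4 CPM and epicardial ADAMTS20 at 12, 3.94, 19.5 and 4.74 CPM. Both were highest in sheep 48 and 233, the libraries with the most heart muscle transcripts of this group, and lower in sheep 185 and 255. Epicardial libraries of sheep 48 and 233 also had more ARGLU1 and LUC7L3 (8057 and 7764 against 3198 and 2950 CPM). Their total counts were lower (1753228 and 2077594 against 4474902 and 5127310). Sheep 255 had fewer heart muscle transcripts than sheep 185 (5.31 and 221 CPM) but higher values of both genes. The part of any of these in either gene was not tested. ADAMTS5 was at -1.56 (SE 0.30, adjusted p = 0.00894) beside -1.21, ADAM9 at -1.01 (SE 0.18, adjusted p = 0.00481) beside -0.89, ADAMTS15 at -1.10 (SE 0.28, adjusted p = 0.034) beside -1.66 and ADAM12 at -0.95 (SE 0.25, adjusted p = 0.0388) beside -0.54. Each of the 6 lost its call when 1 testosterone sheep was left out: ADAM23 without sheep 48 or 233 (adjusted p = 0.0569 to 0.067), ADAMTS20 without sheep 233 (adjusted p = 0.169), ADAMTS5 without sheep 48, 185 or 233 (adjusted p = 0.0672 to 0.0938), ADAM9 without sheep 48 or 233 (adjusted p = 0.0563 to 0.0679), ADAMTS15 without sheep 48, 185 or 233 (adjusted p = 0.0862 to 0.184) and ADAM12 without sheep 48, 185 or 233 (adjusted p = 0.2 to 0.244).

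In subcutaneous fat of testosterone sheep 3 genes were called (2.54% of all genes): ADAMTSL1 at 1.48 (SE 0.31, adjusted p = 0.0222), MMP16 at -0.89 (SE 0.20, adjusted p = 0.029) and ADAMTS16 at -2.65 (SE 0.56, adjusted p = 0.0223). The first 2 were also called, in the same direction, in control sheep, and ADAMTS16 had -1.71 there without passing. These calls were lost without sheep 185 or 233 (adjusted p = 0.158 to 0.177), sheep 48, 185 or 233 (adjusted p = 0.0712 to 0.226) and sheep 185, 233 or 255 (adjusted p = 0.0548 to 0.204), respectively. In perirenal fat 1 gene was called (0.559% of all genes), MMP16 at 1.22 (SE 0.17, adjusted p = 0.00487), where control sheep had -0.09, and it was lost without sheep 185 or 233 (adjusted p = 0.0656 to 0.176). Leaving out 1 testosterone sheep gave 0 to 13 joint calls (2 without sheep 48, 1 without 185, 0 without 233, 13 without 255), 0 to 9 epicardial (1, 3, 0 and 9 in that order), 0 to 4 subcutaneous (2, 0, 0 and 4) and 0 to 2 perirenal calls (0 without sheep 185 or 233, 2 without 255). DESeq2 called 13 jointly, 5 in subcutaneous and 7 in perirenal fat, and in perirenal fat 3 were called with no filter on low counts, 0 without the sheep as a block and 5 without the 4 libraries that stood apart (subcutaneous and epicardial of sheep 48, visceral and epicardial of sheep 255). Without the block, 1 was called in subcutaneous fat. In visceral fat 0 were called by edgeR (0.0895% of all genes), 8 had an unadjusted p under 0.05 (8.9% of all genes) and DESeq2 called 2. For DESeq2 and the other refits, the share of all genes called was not computed. The ADAMTS16 log2 fold change in visceral fat was 2.10 (adjusted p = 0.0584) in testosterone and 2.00 in control sheep, and that of ADAMTSL1 -1.87 (adjusted p = 0.0711) and -1.82.

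**Figure D3:**
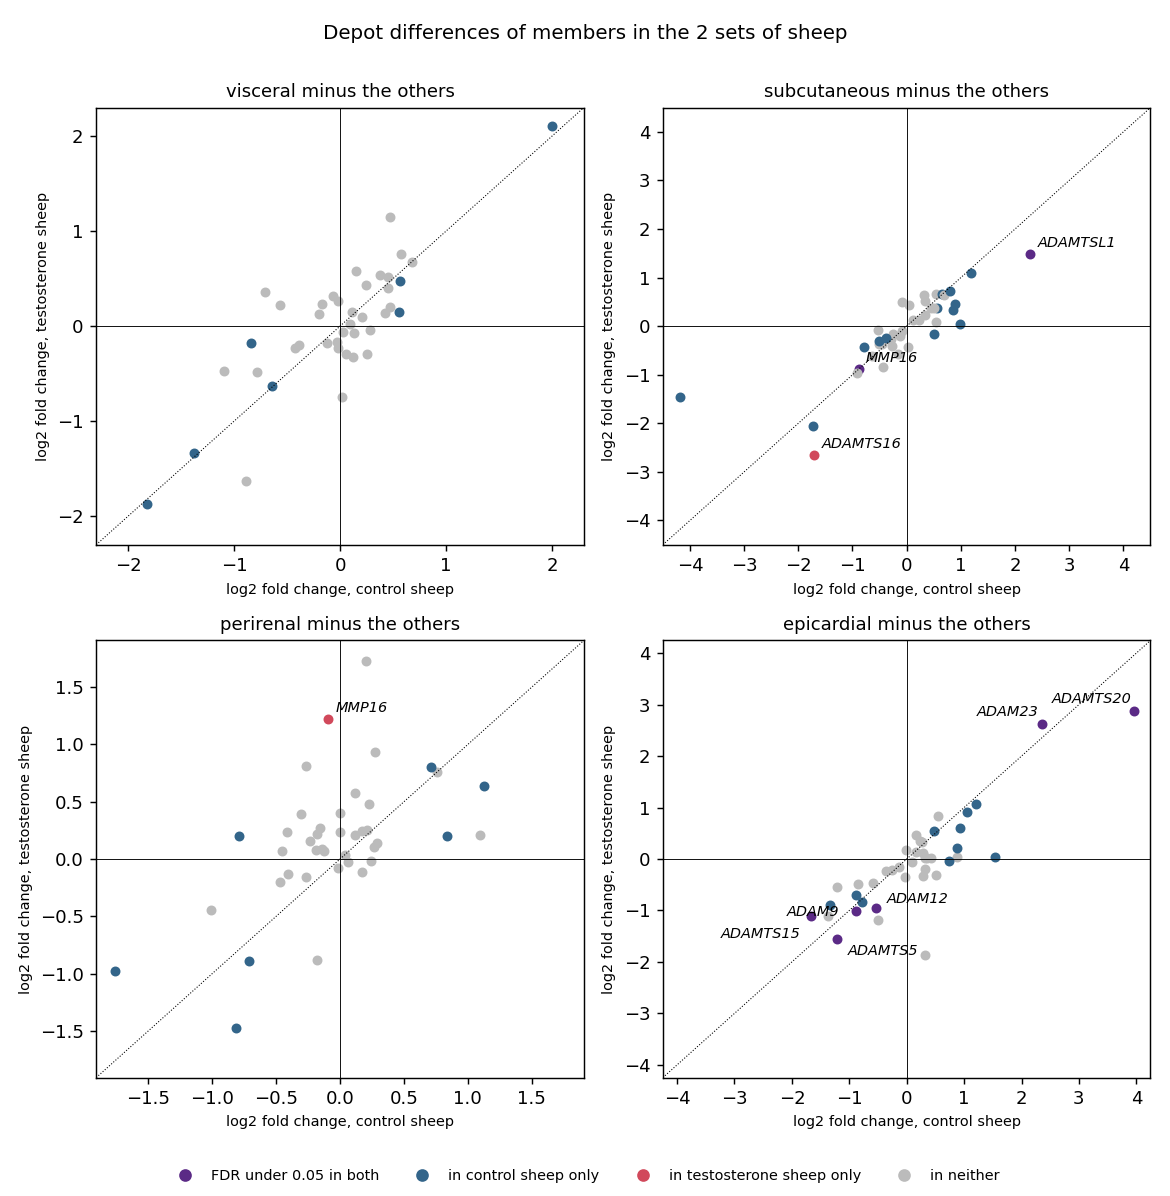
Log2 fold change of 1 depot minus the mean of the other 3 in control sheep (horizontal axis) and in testosterone sheep (vertical axis), 1 point per gene and 1 panel per depot, n = 4 sheep in each set, with a dotted line of equal values. Purple points passed FDR 0.05 in both sets (2 in subcutaneous and 6 in epicardial fat, all with the same sign), blue points in control sheep alone and red points in testosterone sheep alone, with MMP16 high on the vertical axis of perirenal fat.

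The second comparison asks whether testosterone before birth changed these genes in the adult. No gene of the set passed in any depot by edgeR's quasi-likelihood test or by DESeq2. That was 0 of 38 tested in visceral, 0 of 33 in subcutaneous, 0 of 41 in perirenal and 0 of 37 in epicardial fat, and 0% of all genes passed in each depot. The values below are therefore levels and unadjusted results. The SE of a log2 fold change had a median of 0.38, 0.40, 0.34 and 0.34 over the tested genes in these depots. After adjustment over all genes, even the largest perirenal log2 fold change, 2.05, did not pass. Changes of 1 log2 unit or more could thus be missed here.

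Unadjusted p under 0.05 was found for 11 of 41 genes in perirenal fat (26.8%, 9 with a positive and 2 with a negative log2 fold change), against 5.37% of all genes tested. In visceral fat it was 8 of 38 (21.1%) against 9.42%, in epicardial fat 4 of 37 (10.8%) against 5.65%, and in subcutaneous fat 1 of 33 (3.03%) against 5.11%. The median log2 fold change was 0.23 in perirenal, 0.06 in visceral, 0.07 in epicardial and 0.0031 in subcutaneous fat, beside 0.0047, 0.02, 0.0031 and 0.02 over all genes. The genes are not independent of each other, and the list was not tested as a group.

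**Figure D4:**
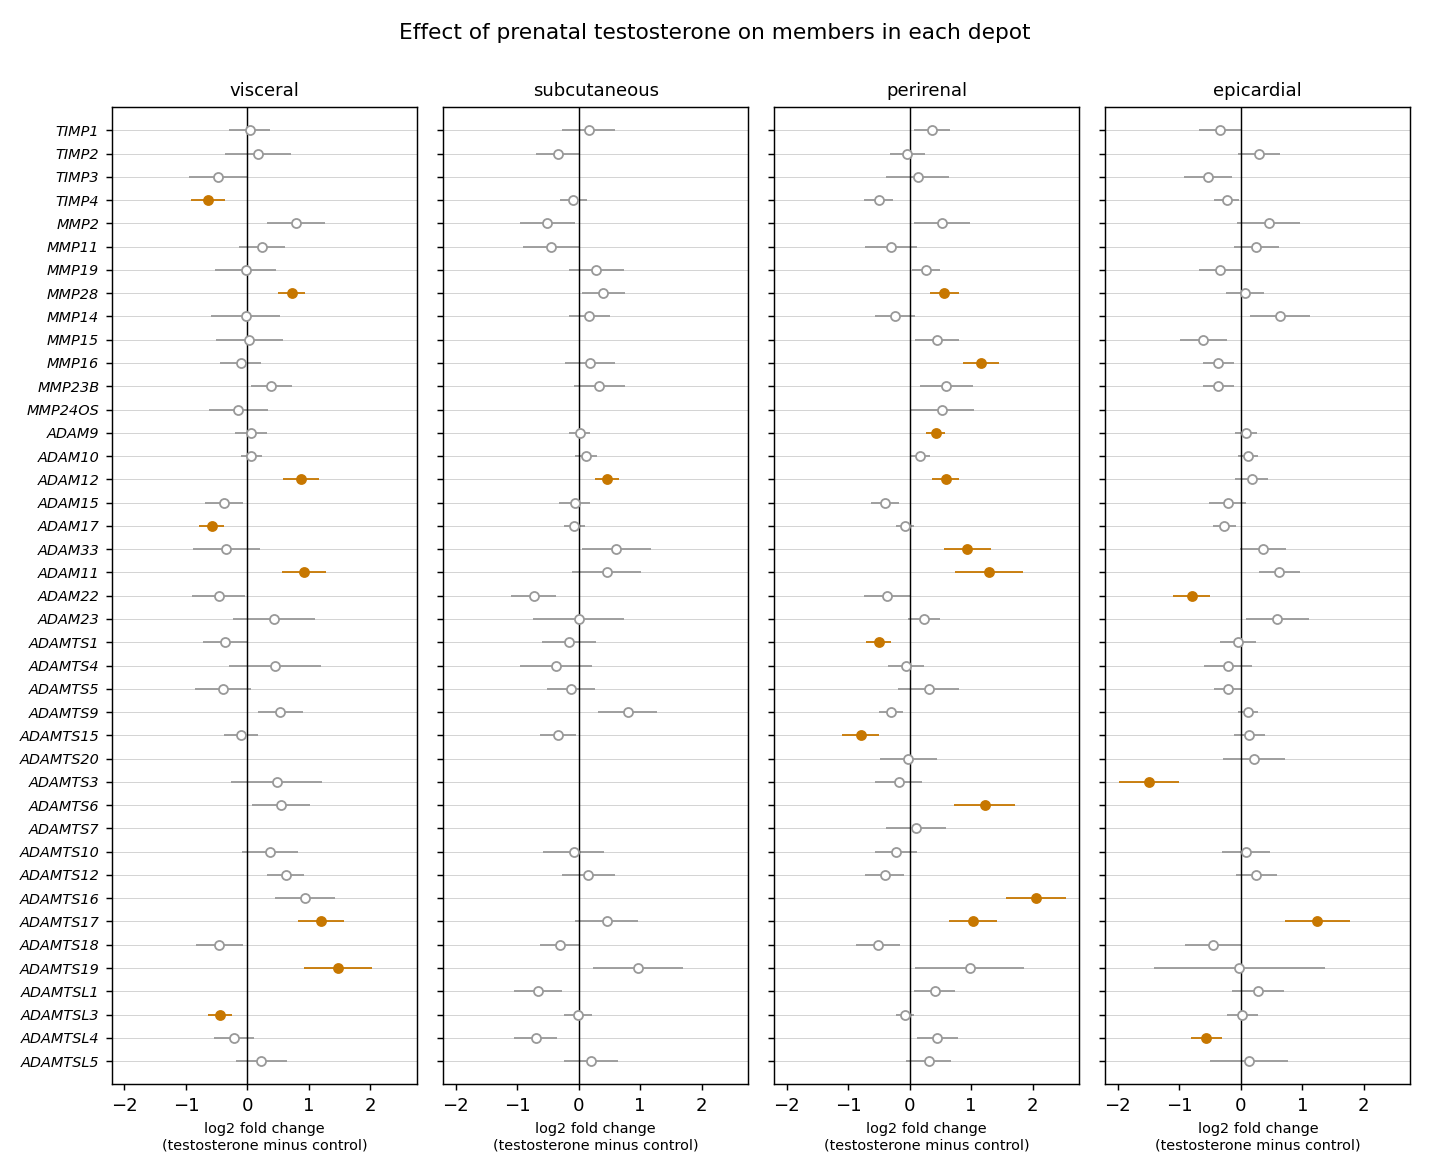
Log2 fold change of testosterone minus control sheep (horizontal axis, 1 panel per depot) for the genes tested in at least 1 depot (vertical axis, by role), n = 4 against 4 sheep, with bars of SE. Filled orange points had an unadjusted p under 0.05 (8, 1, 11 and 4 in visceral, subcutaneous, perirenal and epicardial fat), most of them to the right in perirenal fat, and none passed FDR 0.05.

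In perirenal fat the smallest p was that of ADAMTS16, at 3.15, 5.26, 6.74 and 3.74 CPM in testosterone and 0.751, 0.624, 0.773 and 2.6 CPM in control sheep. All testosterone values were above all control values, of which sheep 201 was the highest. The fitted difference (log2) was 2.05 (SE 0.48, unadjusted p = 0.00141, adjusted p = 0.878), and 1.82 to 2.7 when 1 sheep was left out. MMP16 was at 55.5, 71.7, 114 and 64.7 CPM in testosterone and 20.1, 33.4, 34.5 and 48.4 CPM in control sheep, again without overlap, with sheep 233 the highest. Its log2 fold change was 1.16 (SE 0.29, unadjusted p = 0.0023, adjusted p = 0.878), and 0.90 to 1.39 when 1 sheep was left out. In the other depots MMP16 had -0.11 in visceral, 0.19 in subcutaneous and -0.37 in epicardial fat.

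Another 2 of the 4 perirenal genes without overlap, against 2.91% of all genes, were MMP28 and ADAM9. MMP28 was at 20.8, 19.2, 20.9 and 16.9 against 7.96, 16.7, 14.8 and 13 CPM, with a log2 fold change of 0.56 (SE 0.24, unadjusted p = 0.0372, adjusted p = 0.914). ADAM9 was at 65.2, 65.1, 75.3 and 96.1 against 54.7, 51.3, 57.6 and 61 CPM, with 0.42 (SE 0.16, unadjusted p = 0.0239, adjusted p = 0.914). Both were chosen after their values were seen. The other perirenal genes with an unadjusted p under 0.05 were, with the log2 fold change in brackets, ADAM12 (0.58), ADAM33 (0.94), ADAM11 (1.29), ADAMTS6 (1.22), ADAMTS17 (1.03), ADAMTS1 (-0.50) and ADAMTS15 (-0.80). Among the markers, progenitor and fibroblast transcripts summed to 2840 to 6077 CPM in perirenal fat of testosterone sheep and 2528 to 3351 CPM in control sheep, highest in sheep 233 as MMP16 was. Adipocyte transcripts summed to 26517 to 50462 and 27061 to 42130 CPM, and the part of either in these values was not tested.

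In visceral fat the smallest p was that of ADAMTS17, a fibrillin-associated enzyme, at 9.83, 10, 5.27 and 4.07 CPM in testosterone and 3.33, 1.97, 4.39 and 3.25 CPM in control sheep. Testosterone sheep 255 fell within the control range and the other 3 lay above it. On the log2 scale the difference was 1.20 (SE 0.38, unadjusted p = 0.00882, adjusted p = 0.521). The 2 visceral genes without overlap (5.61% of all genes) were MMP28, at 26.7, 21.6, 16.2 and 22.4 against 13.3, 12, 15.3 and 13.2 CPM, and ADAMTSL3, at 88.9, 118, 119 and 87.5 against 134, 157, 119.9 and 159.5 CPM. ADAM17 was at 67.8, 47.3, 58.7 and 40.7 against 84.7, 81.1, 93.5 and 67 CPM, with -0.58 (SE 0.21, unadjusted p = 0.0174, adjusted p = 0.521), and 1 testosterone value overlapped the control range. TIMP4 was at 41.5, 29.6, 34.6 and 18.7 against 50.1, 67.7, 33.8 and 45.6 CPM, with -0.64 (SE 0.28, unadjusted p = 0.0408, adjusted p = 0.521). The visceral library of sheep 255, with the high ARGLU1 and LUC7L3, also had the lowest TIMP1, TIMP2, TIMP3 and TIMP4 of the 8 visceral libraries and an adipocyte marker sum of 8131 CPM, against 26691 to 53442 CPM in the other 7. Without it, 0 genes were called as well.

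In subcutaneous fat ADAM12 had the smallest p, at 80.1, 76, 104 and 71.8 CPM in testosterone and 53.2, 56.8, 56.7 and 78 CPM in control sheep, with 0.47 (SE 0.20, unadjusted p = 0.0381, adjusted p = 0.927). Control sheep 201 lay inside the testosterone range, and the other 3 controls below it. In epicardial fat ADAMTS3 had the smallest p, at 0.57, 3.15, 2.78 and 0.949 against 6.14, 7.63, 3.8 and 4.93 CPM, with -1.49 (SE 0.49, unadjusted p = 0.0114, adjusted p = 0.766). It and ADAM22, at 5.7, 4.53, 3.25 and 3.42 against 7.11, 8.94, 7.25 and 6.57 CPM, did not overlap (3.71% of all genes), and in both the testosterone values lay below the control values.

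Of 32 genes tested in all 4 depots, 8 had a positive log2 fold change in each depot, namely ADAM9, ADAM10, ADAM11, ADAM12, ADAM23, ADAMTS17, ADAMTSL5 and MMP28, and 6 a negative one, namely TIMP4, ADAM15, ADAM17, ADAM22, ADAMTS1 and ADAMTS18. The depots came from the same sheep and are not independent. The share of all genes with the same sign in all 4 depots was not computed, so these counts have no baseline. When the 4 depots of a sheep were added together, 0 of 46 genes passed (0.00654% of all genes), and 7 had an unadjusted p under 0.05 (15.2%, against 6.8% of all genes). The smallest was that of ADAM12, with 0.65 (SE 0.17, unadjusted p = 0.00318, adjusted p = 0.606). ADAM12 was at 111, 89.5, 173 and 61.8 CPM in visceral fat of testosterone sheep against 56.8, 71.8, 46.7 and 65.2 CPM in controls, and at 32.5, 40.2, 43.1 and 66.6 against 24.2, 43.8, 40.2 and 57.3 CPM in epicardial fat. Both pairs overlapped. The other 6 of these 7, with the log2 fold change in brackets, were ADAMTS16 (1.23), ADAMTS17 (1.02), ADAM11 (0.92), MMP28 (0.48), ADAM22 (-0.54) and TIMP4 (-0.36). Raw counts were added, so a depot with more reads weighed more in the sum. Testosterone sheep 48, for example, had 784135 subcutaneous and 4941359 visceral counts. The part of this weighting in the summed effects was not tested.

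The interaction asks whether the effect of testosterone differs between depots, within sheep. It passed for 0 of 45 genes (0.00703% of all genes), and 4 had an unadjusted p under 0.05 (MMP16, MMP27, ADAMTS6 and ADAMTSL4), against 4.61% of all genes. MMP16 had the smallest, at unadjusted p = 9.81e-04 and adjusted p = 0.932, and an adjusted p of 0.0939 by DESeq2 and up to 1 over the other alternatives. Its perirenal effect of 1.16 stood beside effects of -0.37 to 0.19 in the other depots, but the difference did not pass over all genes.

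**Figure D5:**
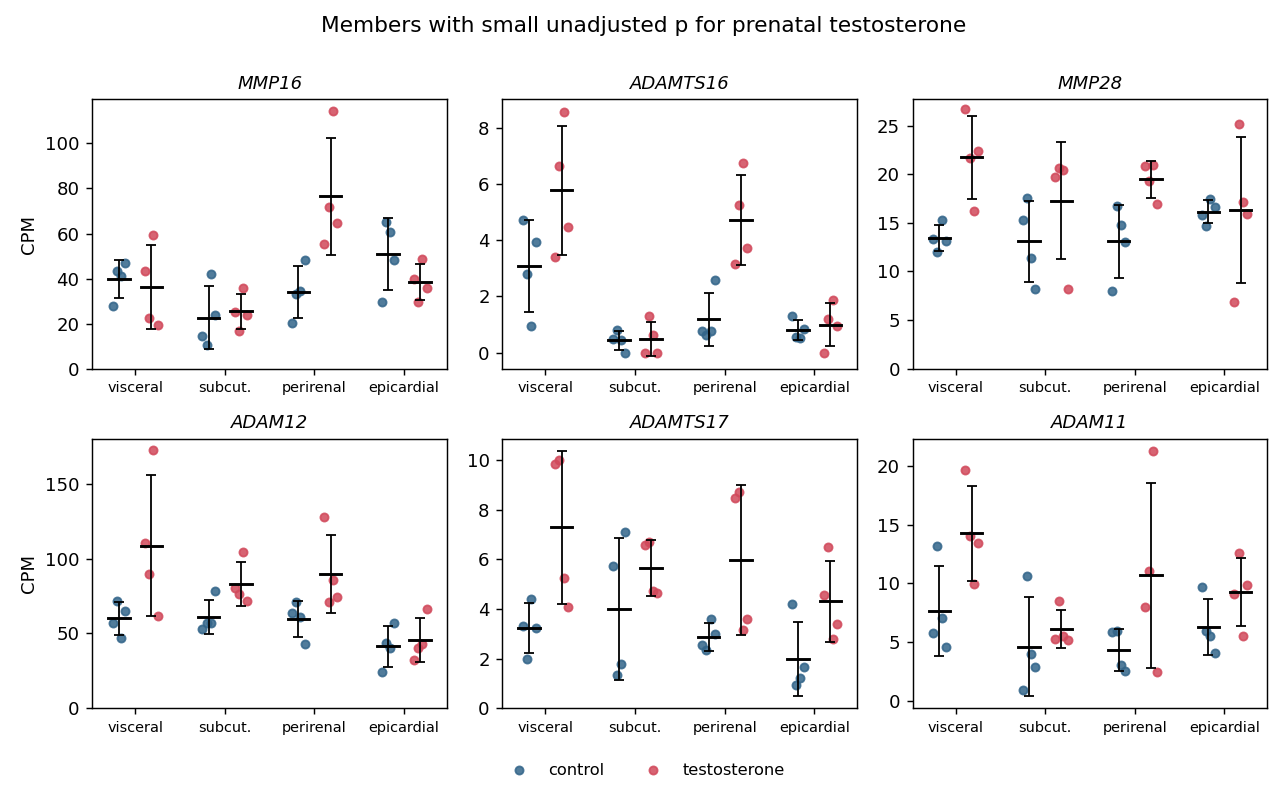
CPM (vertical axis, linear, in 6 panels) of MMP16, ADAMTS16, MMP28, ADAM12, ADAMTS17 and ADAM11 in single libraries by depot and treatment, with lines at the mean and bars of SD, n = 4. In perirenal fat the points of all 4 testosterone sheep lie above those of all control sheep for MMP16 and ADAMTS16, at unadjusted p under 0.05 and with no call after adjustment.

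Other genes of the same biology also differed between depots of control sheep. Of 23 tested activators and surface regulators of these proteases, 9 were higher and 3 lower in epicardial fat, where 15.3% of all genes were higher and 12.4% lower. By log2 fold change they included SPOCK1, a matrix proteoglycan of the testican family, at 4.60 (SE 0.45, adjusted p = 1.65e-06), the protease inhibitor TFPI2 at 1.93 (SE 0.13, adjusted p = 1.44e-08), and the matricellular thrombospondins THBS1 at -2.56 (SE 0.20, adjusted p = 1.88e-07) and THBS2 at -1.62 (SE 0.31, adjusted p = 0.00223). In subcutaneous fat 2 were higher and 4 lower (11.4% and 11.6% of all genes), in visceral fat 2 and 1 (3.49% and 2.24%), and in perirenal fat 2 and 1 (7.73% and 6.04%). Of 11 tested zinc metalloproteinases of other families, 10 were called in the joint test of depot, against 39.9% of all genes. In epicardial fat 3 of the 11 were higher and 2 lower (27.8% of all genes were called there), among them, with the log2 fold change in brackets, the endopeptidase PHEX (3.03), aminopeptidase A (ENPEP, 1.99), aminopeptidase N (ANPEP, -1.82) and carboxypeptidase M (CPM, -1.09). In subcutaneous fat 5 were higher and 2 lower (23% of all genes called).

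Of 34 tested substrates, 13 were higher and 7 lower in epicardial fat, 5 and 5 in subcutaneous, 3 and 1 in visceral, and 0 and 3 in perirenal fat, where 27.8%, 23%, 5.73% and 13.8% of all genes were called. DLK1, a Notch ligand-like inhibitor of adipogenesis that ADAM17 sheds, was at 120.5 to 410 CPM in epicardial fat of control sheep and 0.156 to 29.4 CPM in perirenal fat, with no count in subcutaneous fat. The adhesion molecule CDH2 (log2 fold change 3.47), shed by ADAM10, and the secreted glycoprotein reelin (RELN, 2.87), cut by ADAMTS enzymes, came next in size, followed by THBS1. Versican (VCAN), a substrate of ADAMTS5, ADAMTS15 and ADAMTS20, was higher in epicardial fat, at a log2 fold change of 1.40 (SE 0.18, adjusted p = 6.01e-05), and the collagens COL1A1 and COL3A1 at 1.64 and 1.39; these 3 were chosen after their values were seen. No gene of these 3 lists was called in a testosterone effect or in the interaction. The part of heart muscle transcripts in the epicardial values of list genes, CDH2 among them, was not tested.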

How the data were processed

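Fat of 8 sheep was measured in 4 depots by QuantSeq 3′ RNA sequencing of RNA with an integrity number of at least 7, per the labels' protocols. The values are raw read counts per gene as deposited by the authors in 1 table of 28524 genes and 32 libraries. The submitters' processing notes name STAR, featureCounts 1.6.1 and Trimmomatic 0.36, beside FastQC 0.11.5, MultiQC 0.9, DESeq2 1.24.0 and R 3.6.3. Neither the genome build nor the strand setting is given in the sources used here.

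Counts were fitted with edgeR 4.0.16 in R 4.3.3 (TMM scaling, filterByExpr with a minimum count of 10, robust quasi-likelihood F test, Benjamini-Hochberg adjustment over all genes tested). Depot contrasts had the sheep as a block and were fitted apart in control and testosterone sheep, the testosterone effect was fitted in each depot and on sums over the 4 depots of a sheep, and the interaction used all 32 libraries. SE was taken as the absolute log2 fold change over the root of F. CPM used TMM factors (0.862 to 1.14) over all libraries. Floors of 3 counts and Poisson intervals cover counting error only. The depots of a sheep come from the same animal, and 41 of 48 pairs of libraries of the same sheep had deviations from their group means correlated over 0.1 (mean 0.23). Replicates were separate animals, and 0 of 48 replicate pairs held identical values.

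Alternatives were DESeq2 1.42.0, its size factors in edgeR, no filter, no block, 1 fit over all libraries, each sheep left out and libraries that stood apart left out. Some of the comparisons were also run on simulated data without sheep effects or outlying libraries, and the outcome is not given here. Overlapping genes were looked up by name in an annotation of assembly ARS-UI_Ramb_v3.0, which held 60 of the 61 symbols. The gene set and lists were chosen with earlier results of these data known. Values in single libraries were given for 17 genes chosen by role, the 5 largest calls of each control depot contrast, the smallest p of each testosterone comparison and the 3 highest levels of each depot, and other genes so described (such as ADAM9, ADAM33, MMP23B, MMP28 and ADAM22) were chosen after their values were seen. List genes named were the up to 4 largest calls. Some Schwann cell markers are not reported here.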

Additional observations from a re-analysis of the deposited data

Results flagged for a closer look

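Single libraries were set against the rest of their group for 27 genes, and 13 of 209 groups of 4 held 1 value far from the other 3, where chance alone flags about 1 in 20 groups. No explanation was tested.

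Control sheep 98 gave 4 of these. Its visceral library had 5.69 CPM of MMP9 (0.342 to 1.15 in the other 3), 27.2 CPM of MMP19 (8.25 to 11.3) and 33.9 CPM of ADAM33 (6.79 to 10.2), and its subcutaneous library had 342 CPM of TIMP2 (199.6 to 223). Control sheep 201 had 78.0 CPM of ADAM12 in subcutaneous fat (53.2 to 56.8) and 2.60 CPM of ADAMTS16 in perirenal fat (0.624 to 0.773). Control sheep 132 had 6.03 CPM of ADAMTS3 in subcutaneous fat (0.265 to 1.09).

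Testosterone sheep 233 had 117 CPM of ADAMTS4 in visceral fat (7.32 to 16.5) and 6.49 CPM of MMP9 in epicardial fat (0 to 0.984). Testosterone sheep 255 had 9.14 CPM of MMP14 in perirenal fat (4.60 to 5.02), 18.3 CPM of ADAMTS12 in visceral fat (10.5 to 11.1) and, below the others, 12.3 CPM of ADAM33 in epicardial fat (34.8 to 38.2). Testosterone sheep 48 had 74.9 CPM of ADAM33 in subcutaneous fat (13.4 to 18.5), in the library with the highest ARGLU1 and LUC7L3.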

How the results depend on the processing

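Of 55 called results of single genes, each refitted under 9 or 10 alternatives, 15 held under all run for them and 16 held whichever sheep was left out. None of these, nor of the other 5 single-gene results, reversed under the alternatives run for it. Without each control sheep in turn the counts of genes called were 12 to 16 (joint), 1 to 7 (visceral), 8 to 13 (subcutaneous) and 4 to 7 (perirenal), and without each testosterone sheep 0 to 13 (joint), 0 to 4 (subcutaneous), 0 to 2 (perirenal) and 0 to 9 (epicardial). Without the sheep as a replicate block the counts were 14 (joint) and 4 (perirenal) in control sheep and 1 (subcutaneous) and 0 (perirenal) in testosterone sheep. DESeq2 called 13 (joint), 2 (visceral), 5 (subcutaneous) and 7 (perirenal) in testosterone sheep. With no filter on low counts, 1 (visceral) and 3 (perirenal) were called there. Without the subcutaneous and epicardial libraries of sheep 48 and the visceral and epicardial libraries of sheep 255, 1 (visceral) and 5 (perirenal) were called there. Without the epicardial and perirenal libraries of sheep 98, 3 were called in perirenal fat of control sheep. The cause of these moves was not tested, beyond fewer sheep in the fit where 1 was left out. Shares over all genes were not computed for the alternatives. The epicardial count of control sheep was 12 to 17 over its alternatives. The counts for testosterone effects and the interaction were 0 in every alternative run. Depth limits the low genes: 3 counts over a group of 4 libraries were 0.113 to 0.210 CPM.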
